A study of Mus musculus with 6 samples.

Results

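The genes described here encode the conjugating, aldehyde and aldo-keto enzymes of the mouse lung: glutathione S-transferases (Gst and the microsomal Mgst), UDP-glucuronosyltransferases (Ugt), sulfotransferases (Sult), flavin-containing monooxygenases (Fmo), aldehyde dehydrogenases (Aldh), aldo-keto reductases (Akr) and carbonyl reductases (Cbr). They were taken by gene name from the array files, with the brightest probe standing for each gene, and a gene was kept where 3 or more of the 6 arrays called that probe well above background. The rule found 129 probes for 92 genes, of which 81 genes were kept, out of 20423 genes kept on the whole array. Total RNA came from whole lungs of naïve 8-week-old males, 3 Nogo-A/B knockout lungs (numbers 1, 11 and 12) and 3 wild-type lungs (numbers 11, 12 and 13), each on its own 1-colour (Cy3) array of 60-base probes. Nogo-A and Nogo-B are proteins made from the reticulon gene Rtn4, and the series is titled as a study of Nogo in asthma, although no mouse here had been treated. The strain, the design of the deleted allele and the origin of the wild-type mice are not given in the sources used here. The design calls the 3 lungs of a group individual biological replicates.

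These enzymes clear foreign and endogenous small molecules. Fmo enzymes oxidise nitrogen and sulfur centres, Akr and Cbr enzymes reduce carbonyl groups to alcohols, and Aldh enzymes oxidise aldehydes to acids, including retinal to the hormone retinoic acid. Gst, Ugt and Sult enzymes then attach glutathione, glucuronic acid or sulfate, which makes the products soluble for export. In the lung much of this chemistry takes place in the club cells of the airway, which are rich in Cbr2 and Aldh1a1, and Fmo2 is the main monooxygenase of its family there.

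Values are log2 signals minus the log2 of their array's 75th percentile, and a difference is always knockout minus wild type on that scale. Levels are not compared between genes, because each probe has its own efficiency. The scanner software called 68.9% to 78.0% of an array's probes well above background. A probe within the Rtn4 locus (chr11:29649392-29649451, build mm7) stood at -8.03, -8.46 and -8.29 in knockout lungs and was not well above background on any of those arrays, against -3.03, -2.89 and -2.27 in wild-type lungs. Which part of the gene was deleted is not given, and an Rtn4 probe farther along (chr11:29693516-29693723) was measured on all 6 arrays, at 1.1, -0.71 and -1.79 in knockout lungs and 1.69, 1.62 and 2.36 in wild-type lungs. The arrays were scanned on 2 days, knockout 1, knockout 11 and wild type 13 on day 1 and knockout 12, wild type 11 and wild type 12 on day 2, so both days held both genotypes and values within each day are given where they differ. By slide barcode, knockout 1 and wild type 13 were on slide 1, knockout 11 on slide 2 and all day 2 arrays on slide 3. No slide held arrays of both days, so a difference between days cannot be told apart from one between slides. Arrays of the same day were more alike than arrays of the same genotype, with correlations over genes from 0.972 to 0.994 within a day and from 0.950 to 0.965 between days (genes are not independent replicates). All measured markers of alveolar type 1, alveolar type 2 and club cells were detected above background on 5 or 6 arrays.

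No enzyme gene, and none of the 20423 genes, passed an adjusted p under 0.05 between knockout and wild-type lungs (limma, Benjamini-Hochberg over all genes; 0% of all genes called). At an unadjusted p under 0.05, 2 of 81 enzyme genes were found, Akr1c18 and Sult1e1, where 0.935% of all genes reached that level. Knockout and wild-type values did not overlap for 8 of 81 members (9.88%), against 3.98% of all genes. Among them Akr1c18, Sult1d1 and Sult1e1 were lower in knockout lungs, where 1.59% of all genes were lower without overlap. Akr7a5, Gstm1, Gstm3, Mgst3 and Ugt2a3 were higher, where 2.39% of all genes were higher without overlap. Akr1c18 was well above background on 0 knockout arrays and 3 wild-type arrays, so it passed the filter only through the group where it is high; these counts include it, and nothing is read from them about the members. The mean was lower in the knockout for 37 of 81 members and for 47.8% of all genes. The median difference was 0.03 over the members and 0.01 over all genes, and 71 of 81 members lay within 0.5 of 0, a share of 87.7% against 88.4% of all genes.

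Detection differed by family. All 22 Gst and Mgst genes, all 20 Aldh genes and all 4 Cbr genes were well above background on all 6 arrays. Of 14 Ugt genes 7 were kept, and 6 were well above background on no array: Ugt1a1, Ugt1a9, Ugt2a1, Ugt2b1, Ugt2b37 and Ugt2b5, named to complete the count. Of 11 Sult genes 8 were kept, of 15 Akr genes 14, and all 6 Fmo genes. Just inside the threshold, Akr1c18 and Fmo6 were well above background on 3 arrays. Just outside it, Sult2a2, a hydroxysteroid sulfotransferase, was well above background on 2 arrays, knockout 1 and knockout 12, at -6.38, -7.64 and -4.19 in knockout lungs against -7.07, -6.66 and -7.01 in wild-type lungs.

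**Figure D1:**
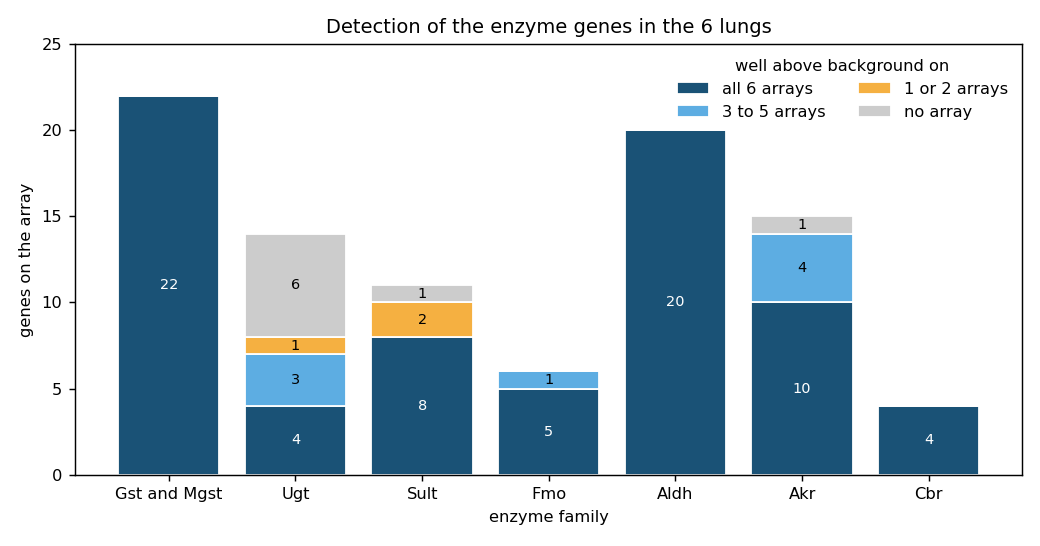
Number of genes on the array (vertical axis) in each enzyme family (horizontal axis), split by the number of the 6 lung arrays on which the gene's brightest probe was well above background. The Gst, Aldh and Cbr bars are filled by genes detected on all 6 arrays, while 6 of 14 Ugt genes were detected on no array.

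Among the aldo-keto reductases, Akr1c18 was measured in wild-type lungs and not well above background in knockout lungs. Its enzyme, 20-alpha-hydroxysteroid dehydrogenase, inactivates progesterone. Akr1c18 stood at -7.78, -8.81 and -8.60 in knockout lungs, none of them well above background, against -4.65, -5.63 and -6.22 in wild-type lungs, all well above background. The groups averaged -8.40 ± 0.54 and -5.50 ± 0.79 (SD, n = 3 each) for knockout and wild type. The knockout arrays did not measure Akr1c18 well, so each was set to its lowest well-measured signal, or the probe's own where higher. On that footing Akr1c18 was 2.10-fold lower in knockout lungs, with an adjusted p of 0.9998 in limma on the measured values. The fold is not a strict minimum, since a probe not called well above background can exceed that lowest signal. The measured difference was -2.90 with a standard error of 0.47, with -2.08 within day 1 against -3.46 within day 2. With background left in, as in the authors' values, it was -0.82. The probe lies at chr13:4019629-4021004 (mm7, minus strand); its 60 bases span 1376 bases of the genome, so it crosses a splice junction. It is shown with the junction-crossing probes of Akr1c13 (chr13:4087761-4089711, plus strand) and Akr1c21 (chr13:4468367-4470901, plus strand) from the same gene cluster, 5′ to 3′, all in lower case, so that the letters can be compared; the probes were not compared with the other transcripts of the cluster, and which transcript each bound was not tested.
Akr1c18: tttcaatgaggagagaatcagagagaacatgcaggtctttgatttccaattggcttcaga
Akr1c13: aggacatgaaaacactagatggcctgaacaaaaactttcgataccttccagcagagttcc
Akr1c21: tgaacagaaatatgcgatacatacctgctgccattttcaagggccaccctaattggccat
The Akr1c18 probe matched the most similar of the other member probes at 27 of 60 bases, and over all 4186 pairs of member probes the highest match was 31 bases, against a median of 20 (without gaps, at offsets of up to 20 bases).

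The Akr1c genes and Akr1e1 form a cluster on chromosome 13, with 9 kept genes over 503 kb between their outer probes (mm7). The mean was lower in the knockout for 8 of 9, where 47.8% of all genes were lower. The count was the same under the other scalings tried, which reuse the same 6 arrays, and 7 of 9 with scan day in the model. It includes Akr1c18, which passed the filter only through the wild-type arrays, so nothing is read from the count about the cluster. The cluster's median difference was -0.28. Apart from Akr1c18 and Akr1c20 the differences were at most 0.52 in size. Within day 1, 8 of 9 were lower and within day 2, 3 of 9. Akr1c20 rested on 1 array: it stood at -2.49, -8.68 and -2.18 in knockout lungs, where knockout 11 was not well above background, and at -2.42, -2.64 and -2.76 in wild-type lungs. Its difference was -1.85 with a standard error of 1.72, and 0.27 without knockout 11. Akr1c14, a 3-alpha-hydroxysteroid dehydrogenase, stood at 1.40, 1.39 and 2.86 in knockout lungs and 2.28, 2.47 and 2.14 in wild-type lungs. The 2 day 1 knockout lungs were the lowest of the 6 for Akr1c14 and the day 2 knockout lung the highest, and its difference was -0.75 within day 1 and 0.48 within day 2. Akr1c6, a 17-beta-hydroxysteroid dehydrogenase, was well above background in knockout 1 but not in knockout 11 and 12, at -4.38, -7.20 and -6.46, and in all 3 wild-type lungs, at -5.64, -5.07 and -5.77, a difference of -0.52 with a standard error of 0.72.

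Outside the cluster, Akr7a5, an aflatoxin aldehyde reductase at chr4:138695433-138696028 (mm7), was higher in every knockout lung than in any wild-type lung. It stood at 0.67, 0.69 and 0.56 in knockout lungs and 0.36, 0.23 and 0.50 in wild-type lungs, a difference of 0.28 with a standard error of 0.16 (limma, unadjusted p = 0.128, adjusted p = 0.9998). The difference was 0.18 within day 1 and 0.27 within day 2. The aldose reductase-like Akr1b7 stood at -1.91, -2.53 and -1.40 in knockout lungs and -1.99, -2.28 and -1.65 in wild-type lungs. Its groups overlapped, and its difference of 0.03 was made of -0.57 within day 1 and 0.73 within day 2.

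The sulfotransferases held both of the other members that were lower without overlap. Sult1e1 sulfates estrogens and Sult1d1 sulfates catecholamines in the mouse, and the genes lie beside each other on chromosome 5 (probes at chr5:87512926-87512985 and chr5:87492397-87492456, mm7). Sult1e1 stood at -6.16, -5.82 and -5.49 in knockout lungs and -4.82, -5.46 and -4.28 in wild-type lungs. Knockout 12 and wild type 12 lay next to each other, so the gap between the groups was small. The difference was -0.97 with a standard error of 0.35 (limma, unadjusted p = 0.0309, adjusted p = 0.9998), -1.71 within day 1 and -0.35 within day 2. It was -0.46 in the authors' values.

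Sult1d1 stood at -2.69, -0.996 and -0.14 in knockout lungs and 0.16, -0.02 and 0.46 in wild-type lungs. The wild-type lungs spread over 0.24 (SD) and the knockout lungs over 1.30, with knockout 1 farthest from the wild type and knockout 12 close to it. The difference was -1.48 with a standard error of 0.63 (limma, unadjusted p = 0.0567, adjusted p = 0.9998), -2.31 within day 1, -0.21 within day 2 and -0.77 without knockout 1. In whole lung RNA, fewer cells of a type and less RNA per cell cannot be told apart. All 5 measured goblet cell markers were lower in the knockout. The log2 of their summed linear signals, here called the summed level, was -1.55, 0.74 and 0.25 in knockout lungs and 1.22, 0.60 and 2.09 in wild-type lungs. A summed level is set mostly by the brightest markers of its list. All 5 measured adipocyte markers were lower, at summed levels from 2.02 to 3.0 in knockout lungs and from 3.10 to 4.74 in wild-type lungs. All 10 neutrophil markers were lower as well, from 5.55 to 7.62 in knockout lungs and from 6.47 to 8.26 in wild-type lungs, with a median difference of 0.19 within day 1 and -2.53 within day 2. The goblet list's median difference was -2.23 within day 1 and -0.25 within day 2, and the adipocyte list's was -3.24 and -2.21. Of 5 basal cell markers 4 were lower, at summed levels from -2.48 to -1.45 in knockout lungs and from -1.55 to -0.99 in wild-type lungs, and Krt5 and Krt15 were lower without overlap. Foxa3 of the goblet list and Ucp1 of the adipocyte list were well above background on no array. Of 6 club cell markers 4 were higher and 2 lower, at summed levels from 9.04 to 9.68 in knockout lungs and from 8.93 to 9.31 in wild-type lungs. The 2 lower ones, Scgb3a1 and Reg3g, did not overlap between groups and were lowest in knockout 1. Without overlap, 1 goblet and 1 neutrophil marker were also lower, and 2 T cell markers and 1 alveolar type 2 marker higher. Over all genes 1.59% were lower and 2.39% higher without overlap, and nothing is read from these marker counts. The part of goblet, adipocyte, neutrophil, basal and club cells in the sulfotransferase and Akr1c18 values was not tested.

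The other sulfotransferases were mixed, with 4 of 8 higher and 4 lower in the knockout. Sult1c1 stood at -2.05, -3.85 and -1.67 in knockout lungs and -1.81, -2.11 and -1.96 in wild-type lungs, so that knockout 11 lay apart and the other 5 lungs were close. Its difference of -0.56 with a standard error of 0.56 became 0.10 without knockout 11. Sult5a1 stood at -0.33, -0.01 and 0.03 in knockout lungs and -0.79, -0.73 and -0.22 in wild-type lungs. Its difference was 0.48 with a standard error of 0.22 (limma, unadjusted p = 0.0754), 0.05 within day 1 and 0.79 within day 2.

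**Figure D2:**
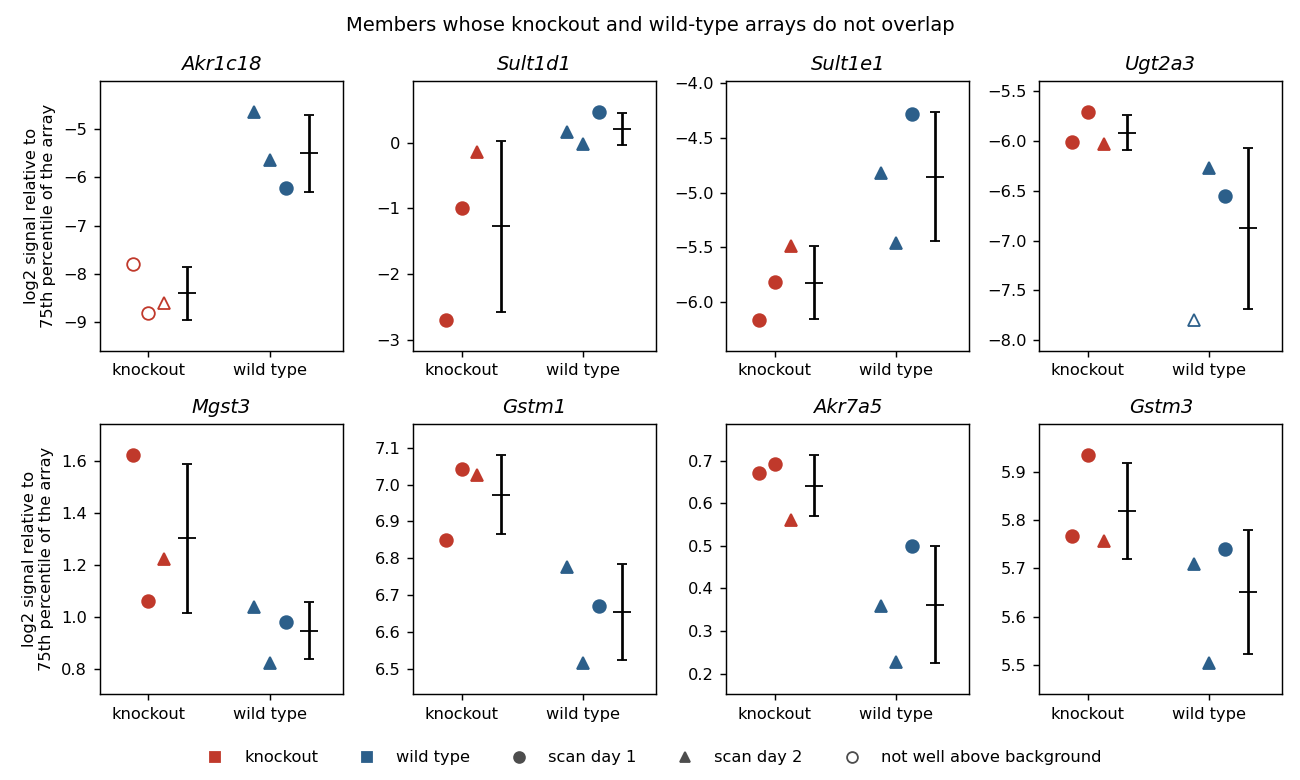
Log2 signal relative to the array's 75th percentile (vertical axes, a separate range per gene) for the 8 members whose groups do not overlap, with the 3 knockout arrays left of the 3 wild-type arrays. Circles are scan day 1 and triangles scan day 2, open symbols are arrays where the probe was not well above background, and bars give mean and SD. Akr1c18 is open in all 3 knockout lungs, and Sult1d1 shows the wide knockout spread from -2.69 to -0.14.

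In the glutathione S-transferases the differences were small and mostly upward. The mean was higher in the knockout for 18 of 22 genes, where 10665 of all 20423 genes were higher. The median difference was 0.13, with a range from -0.41 to 0.36. The count of higher Gst and Mgst genes was 15 of 22 under quantile normalization, under normexp and in the authors' values. It came mainly from day 2, when 21 of 22 were higher, against 60.1% of all genes. On day 1, 9 of 22 were higher, against 9250 of all 20423 genes. On day 2 the only knockout lung was knockout 12. Gstm1, a mu-class transferase at chr3:107830550-107830609 (mm7), stood at 6.85, 7.04 and 7.03 in knockout lungs and 6.78, 6.52 and 6.67 in wild-type lungs, a difference of 0.32 with a standard error of 0.16 (limma, unadjusted p = 0.0975, adjusted p = 0.9998). Gstm1 was higher within both days, by 0.27 and 0.38, and 0.15 higher in the authors' values. The dimmer Gstm1 probe gave 0.08, and its groups overlapped. Gstm3, named to complete the count of members without overlap, stood at 5.77, 5.93 and 5.76 in knockout lungs and 5.71, 5.50 and 5.74 in wild-type lungs, a difference of 0.17 with a standard error of 0.16. Mgst3, a microsomal enzyme of leukotriene and peroxide metabolism, stood at 1.62, 1.06 and 1.22 in knockout lungs and 1.04, 0.82 and 0.98 in wild-type lungs. Knockout 11 exceeded wild type 11 by little, and the Mgst3 difference was 0.36 with a standard error of 0.20 (limma, unadjusted p = 0.129), 0.36 within day 1 and 0.29 within day 2. Its dimmer probe gave 0.10, with overlap.

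The 7 Gstm genes lie within 143 kb on chromosome 3, and 6 of 7 had a higher mean in the knockout (5 of 7 under quantile normalization, under normexp and in the authors' values). Over all genes 10665 of 20423 were higher, and nothing is read from the count about the cluster. Gstm7, lower in the main values, turned on single arrays: it stood at -1.79, -3.62 and -1.56 in knockout lungs and -1.46, -1.66 and -2.63 in wild-type lungs. Knockout 11 and wild type 13 were low, while a dimmer Gstm7 probe spread less over the 6 lungs, running from -3.34 to -3.05 in knockout lungs and from -3.59 to -3.27 in wild-type lungs. Gstt2, of the theta class, stood at 0.51, 0.36 and 0.57 in knockout lungs and 0.07, 0.00 and 0.40 in wild-type lungs, a difference of 0.32 with a standard error of 0.18. Wild type 13 lay inside the knockout range. Gstk1, the mitochondrial and peroxisomal kappa transferase, stood at 3.26, 3.07 and 3.39 in knockout lungs and 2.97, 2.91 and 3.07 in wild-type lungs, touching at knockout 11 and wild type 13, a difference of 0.25 with a standard error of 0.17. Gsta4, which conjugates the lipid peroxidation product hydroxynonenal, stood at -0.01, -0.28 and 0.61 in knockout lungs and -0.31, -0.21 and 0.45 in wild-type lungs. Its difference of 0.13 was made of -0.60 within day 1 and 0.87 within day 2. Gsto1, an omega-class thioltransferase, stood at 4.12, 4.50 and 4.23 in knockout lungs and 4.15, 3.99 and 4.43 in wild-type lungs, with full overlap and a difference of 0.09 with a standard error of 0.20.

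Promoters of Sult1d1 and Sult1e1 and of Gstm1 and Gstm3 are shown because each pair lies in 1 gene cluster and its members differed in the same direction. The 250 bases before the start site are given from RefSeq (GRCm38.p6), 5′ to 3′ in the direction of the gene, all on the minus strand. Capitals mark matches on either strand to the antioxidant response element core TGACNNNGC, the xenobiotic response element core GCGTG, the TATA box TATAAA or the forkhead motif TGTTTAC. The windows are chr5:87569007-87569256 for Sult1d1, chr5:87591612-87591861 for Sult1e1, chr3:108017819-108018068 for the downstream start of Gstm1 and chr3:107969175-107969424 for Gstm3.
Sult1d1: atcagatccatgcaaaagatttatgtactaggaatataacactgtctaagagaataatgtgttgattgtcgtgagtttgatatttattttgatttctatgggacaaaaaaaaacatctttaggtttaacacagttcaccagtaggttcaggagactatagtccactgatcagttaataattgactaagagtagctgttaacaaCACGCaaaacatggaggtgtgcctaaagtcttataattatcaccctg
Sult1e1: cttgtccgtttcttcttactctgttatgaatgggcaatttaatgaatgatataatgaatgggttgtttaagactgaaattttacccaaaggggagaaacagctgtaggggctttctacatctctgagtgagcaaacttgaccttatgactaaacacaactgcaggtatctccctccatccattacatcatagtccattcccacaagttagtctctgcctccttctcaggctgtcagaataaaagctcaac
Gstm1: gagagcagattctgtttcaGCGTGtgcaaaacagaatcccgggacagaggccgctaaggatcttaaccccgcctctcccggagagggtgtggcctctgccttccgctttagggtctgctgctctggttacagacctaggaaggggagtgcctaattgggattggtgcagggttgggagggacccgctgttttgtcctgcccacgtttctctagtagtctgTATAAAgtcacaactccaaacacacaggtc
Gstm3: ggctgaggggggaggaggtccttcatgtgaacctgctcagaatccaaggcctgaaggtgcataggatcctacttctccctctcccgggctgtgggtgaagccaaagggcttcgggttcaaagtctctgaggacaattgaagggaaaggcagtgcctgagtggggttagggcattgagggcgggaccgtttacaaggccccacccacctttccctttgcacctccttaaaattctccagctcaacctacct
The xenobiotic response element core was found in the Sult1d1 window on the opposite strand and in the Gstm1 window, and the Gstm1 window also held the TATA box, 30 bases before its start. None of the 4 motifs was found in the Sult1e1 or Gstm3 window. Of the windows not shown, Mgst3 held the xenobiotic response element core 22 bases before its start. The upstream start of Gstm1 held it 76 bases before, and Akr1c18, Akr7a5 and Ugt2a3 held no match. Of 66 kept members with a promoter in the table, 15 held the xenobiotic response element core (22.7%, against 30.9% of all 27025 genes), 6 the antioxidant response element core (9.09% against 11.5%), 10 the TATA box (15.2% against 14.3%) and 6 the forkhead motif (9.09% against 3.54%). A match is a description of the letters only.

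Among the UDP-glucuronosyltransferases, Ugt2a3 was higher in every knockout lung than in any wild-type lung, near the detection limit. It stood at -6.01, -5.71 and -6.03 in knockout lungs, all well above background, and at -7.79, -6.28 and -6.55 in wild-type lungs, where wild type 11 was not. The difference was 0.96 with a standard error of 0.41 (limma, unadjusted p = 0.0575, adjusted p = 0.9998), 0.50 without wild type 11 and 0.23 in the authors' values. Ugt2b38 ran the other way: it stood at -5.97, -8.77 and -6.69 in knockout lungs, where only knockout 1 was well above background, and at -5.71, -5.66 and -6.08 in wild-type lungs, all well above background. Its difference was -1.33 with a standard error of 0.70, and -0.52 without knockout 11. Ugt2b34 stood at -3.54, -3.70 and -2.92 in knockout lungs and -3.47, -3.58 and -3.98 in wild-type lungs, with overlap. Ugt1a6b, of the phenol-conjugating Ugt1a locus, stood at 2.61, 2.67 and 2.92 in knockout lungs and 2.99, 2.93 and 2.86 in wild-type lungs, a difference of -0.19 with a standard error of 0.16. Genes of this locus share their last exons, and the Ugt1a6b probe (chr1:88122519-88122578, mm7) lies beyond the Ugt1a1 probe (chr1:88115927-88115986), so it may read transcripts of several Ugt1a genes. A dimmer Ugt1a6b probe (chr1:88010877-88010936) was well above background on all 6 arrays. It stood at -3.97, -4.11 and -2.23 in knockout lungs and -2.79, -2.83 and -2.75 in wild-type lungs, a difference of -0.65 with a standard error of 0.51.

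The flavin-containing monooxygenases showed no member without overlap. Fmo2, at the brightest of its 3 probes, stood at 4.10, 3.66 and 3.16 in knockout lungs and 2.72, 2.66 and 4.18 in wild-type lungs. All 3 day 1 lungs were above all 3 day 2 lungs, whatever the genotype, and the genotype difference of 0.45 with a standard error of 0.48 was made of -0.30 within day 1 and 0.47 within day 2. Fmo1 stood at 3.40, 2.84 and 3.32 in knockout lungs and 3.49, 3.17 and 3.43 in wild-type lungs, a difference of -0.17 with a standard error of 0.21, while a dim Fmo1 probe, measured on 4 arrays, gave 1.51. Fmo4 stood at -4.42, -3.79 and -3.50 in knockout lungs and -4.41, -4.44 and -3.32 in wild-type lungs, -0.78 within day 1 and 0.93 within day 2. Fmo6 was well above background in knockout 1, wild type 11 and wild type 13 only. It stood at -6.38, -8.63 and -6.86 in knockout lungs and -5.89, -6.40 and -5.04 in wild-type lungs, a difference of -1.51 with a standard error of 0.65, -0.85 without knockout 11 and -0.40 in the authors' values. The highest knockout value and the lowest wild-type value of Fmo6 were almost equal.

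The aldehyde dehydrogenases lay close to the wild type, with 9 of 20 higher and 11 lower, a range from -0.53 to 0.46 and no member without overlap. Aldh1a1, a retinal dehydrogenase, stood at 6.54, 6.89 and 7.37 in knockout lungs and 6.98, 6.80 and 6.89 in wild-type lungs. The wild-type lungs lay inside the knockout range, and the difference was 0.04 with a standard error of 0.24. Aldh1a3, another retinal dehydrogenase, stood at -4.16, -3.14 and -3.86 in knockout lungs and -3.36, -3.64 and -2.58 in wild-type lungs, a difference of -0.53 with a standard error of 0.38. Aldh4a1, which completes proline breakdown, stood at 0.99, 0.57 and 1.13 in knockout lungs and 1.34, 1.56 and 1.05 in wild-type lungs, a difference of -0.42 with a standard error of 0.23. Aldh18a1, which begins proline synthesis, stood at -2.21, -1.68 and -1.67 in knockout lungs and -2.02, -2.04 and -2.26 in wild-type lungs, a difference of 0.25 with a standard error of 0.21. In each of these 3 genes knockout and wild-type values overlapped. Aldh1l2, a mitochondrial enzyme of folate metabolism, stood at -4.74, -4.30 and -4.83 in knockout lungs and -5.48, -5.33 and -4.45 in wild-type lungs, where wild type 13 lay inside the knockout range, a difference of 0.46 with a standard error of 0.32. Aldh1b1, a mitochondrial acetaldehyde dehydrogenase, stood at -2.97, -1.44 and -3.65 in knockout lungs and -3.15, -2.95 and -1.39 in wild-type lungs. Knockout 11 and wild type 13 were high together, the same lungs that were low at the brighter Gstm7 probe.

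Of the carbonyl reductases, 3 of 4 had a higher mean in the knockout, where 10665 of all 20423 genes did. Cbr2, the mitochondrial carbonyl reductase of the lung, stood at 8.01, 8.16 and 8.50 in knockout lungs and 8.09, 7.60 and 7.95 in wild-type lungs, and its probe was saturated on the wild type 13 array. Its difference of 0.34 with a standard error of 0.22 was 0.01 under quantile normalization and -0.01 in the authors' values, which also keep background and were the only alternative with the other sign. Cbr3 stood at 2.72, 3.46 and 2.84 in knockout lungs and 2.59, 2.83 and 2.71 in wild-type lungs, a difference of 0.30 with a standard error of 0.24, in which knockout 11 stood highest. Cbr1, which reduces prostaglandins and quinones, stood at 1.28, 0.59 and 1.21 in knockout lungs and 0.97, 1.08 and 1.06 in wild-type lungs, a difference of -0.01. Cbr4, a mitochondrial quinone reductase, stood at 0.20, -0.24 and 0.43 in knockout lungs and -0.12, -0.08 and 0.21 in wild-type lungs, a difference of 0.12 with a standard error of 0.23. The groups of all 4 genes overlapped.

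**Figure D3:**
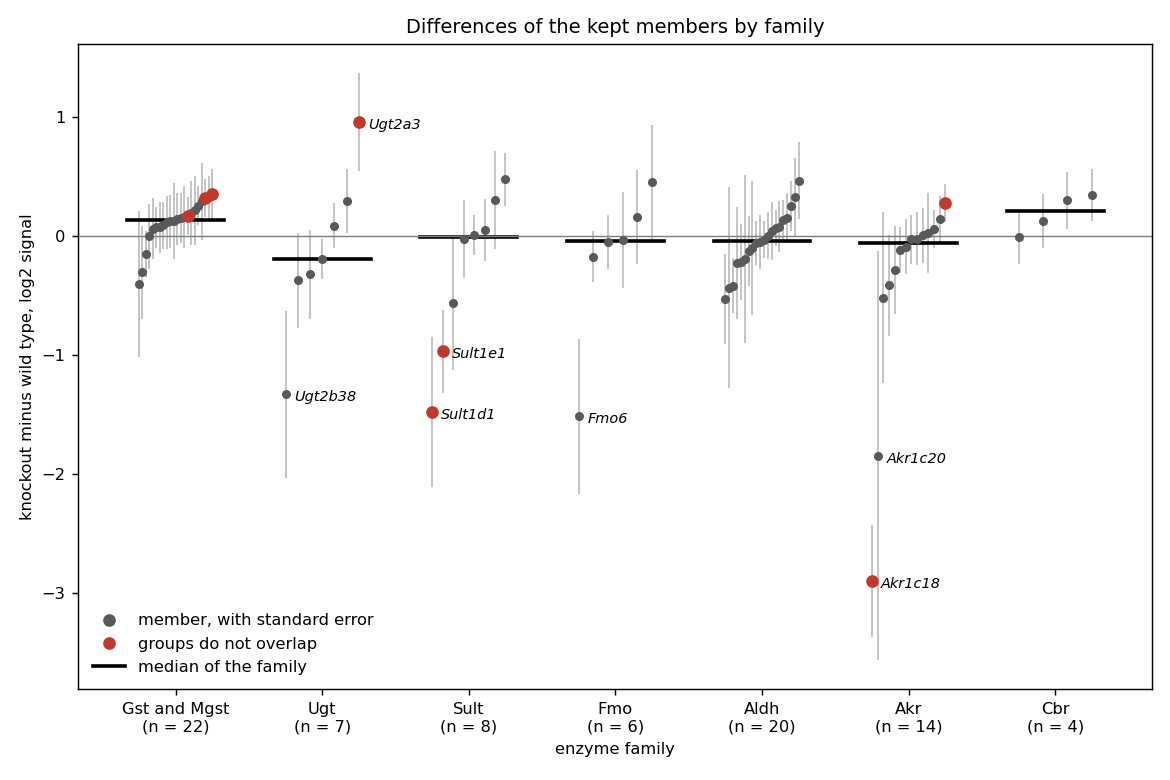
Difference between knockout and wild-type lungs (log2, vertical axis) for each of the 81 kept members, grouped by family along the horizontal axis. Points are members with their standard errors, red points are members whose groups do not overlap, and black lines are family medians. Most Gst members lie just above 0 and within 0.5 of it, while Akr1c18, Akr1c20, Fmo6, Sult1d1, Ugt2b38, Sult1e1 and Ugt2a3 lie farthest from 0.

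The genotype difference is given for each scan day, since the 2 days share no array. Within day 1, 57 of 81 members were lower in the knockout, with a median difference of -0.15, against 54.7% of all genes and a median of -0.04. Within day 2, 64 of 81 were higher, with a median of 0.29, against 60.1% of all genes and a median of 0.08. Members lower on day 1 and higher on day 2 numbered 43 of 81 (53.1%), against 39.7% of all genes, 3 members went the other way, 14 were lower on both days and 21 higher on both. All 6 Fmo genes were lower on day 1, at a median of -0.61, and 4 of 6 higher on day 2, at a median of 0.28. The test of the difference between days (interaction of genotype and day in limma) passed an adjusted p under 0.05 for no member and for no gene; at an unadjusted p under 0.05 it called 9 members (11.1%) and 11.6% of all genes. Knockout 12 had the highest value of the 6 lungs for 34 of 81 members (42.0%, against 24.4% of all genes). The lowest value was in knockout 11 for 31 of 81 (38.3% against 23.1%) and in wild type 12 for 18 of 81 (22.2% against 11.8%). Each day holds a single lung of either the knockout or the wild type, so lung and genotype cannot be told apart within a day.

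**Figure D4:**
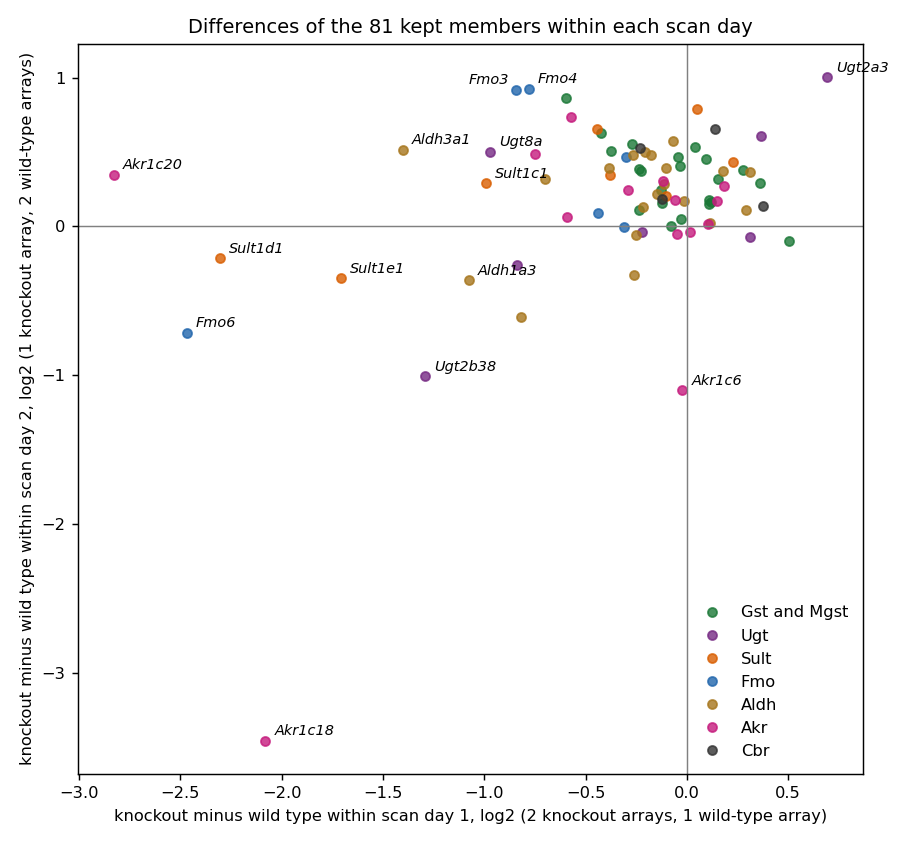
Difference between knockout and wild-type lungs (log2) within scan day 1 (horizontal axis, 2 knockout arrays and 1 wild-type array) and within scan day 2 (vertical axis, 1 knockout array and 2 wild-type arrays) for the 81 kept members, coloured by family. The upper left of the plot, lower on day 1 and higher on day 2, holds 43 members, and Akr1c18 lies lowest on the vertical axis at -3.46.

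Between scan days, 4 of 81 members passed an adjusted p under 0.05 with genotype in the model, where 11.2% of all genes did. The days also differed in slide, and the 2 cannot be told apart. Aldh1a2, the retinal dehydrogenase of mesothelium and embryonic tissues, stood at 0.20, 0.84 and 2.76 in knockout lungs and 2.60, 2.16 and 0.34 in wild-type lungs. The 3 day 2 lungs were above the 3 day 1 lungs, by 2.14 with a standard error of 0.25 (limma, adjusted p = 0.00847). All 5 mesothelial markers also passed the adjusted threshold between days. Their median log2 level was 1.74 to 1.95 in day 2 lungs and 0.59 to 0.66 in day 1 lungs. So did 4 of 5 smooth muscle and 4 of 7 skeletal or cardiac muscle markers, while at most 2 passed in any other marker list. The smooth muscle medians ran the other way, at 0.61 to 0.70 in day 2 lungs and 2.76 to 3.73 in day 1 lungs. The part of mesothelial cells or of the tissue sampled in the Aldh1a2 value was not tested. Gstt1, a theta-class transferase named to complete this count, stood at 0.15, 0.04 and 1.08 in knockout lungs and 1.12, 0.95 and 0.13 in wild-type lungs, higher on day 2 by 0.95 with a standard error of 0.14 (adjusted p = 0.0152). Aldh9a1, an enzyme of carnitine synthesis, stood at 0.45, 0.85 and 2.02 in knockout lungs and 1.70, 1.55 and 0.75 in wild-type lungs, higher on day 2 by 1.12 (adjusted p = 0.0286). Fmo2 was lower on day 2 by 1.11 on the log2 scale (difference of -1.11, adjusted p = 0.0482). The brightest probes of Aldh9a1 and Fmo2 were not matched by the next probe of the same gene, which differed between days by -0.49 for Aldh9a1 and by 0.36 for Fmo2, opposite in sign to the brightest; the dimmest Fmo2 probe differed by -0.33. Over 18 genes with several measured probes, 14 of 21 dimmer probes had the genotype sign of the brightest, and the gap between them was under 0.5 for 17 of 21, with a median of 0.23.

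**Figure D5:**
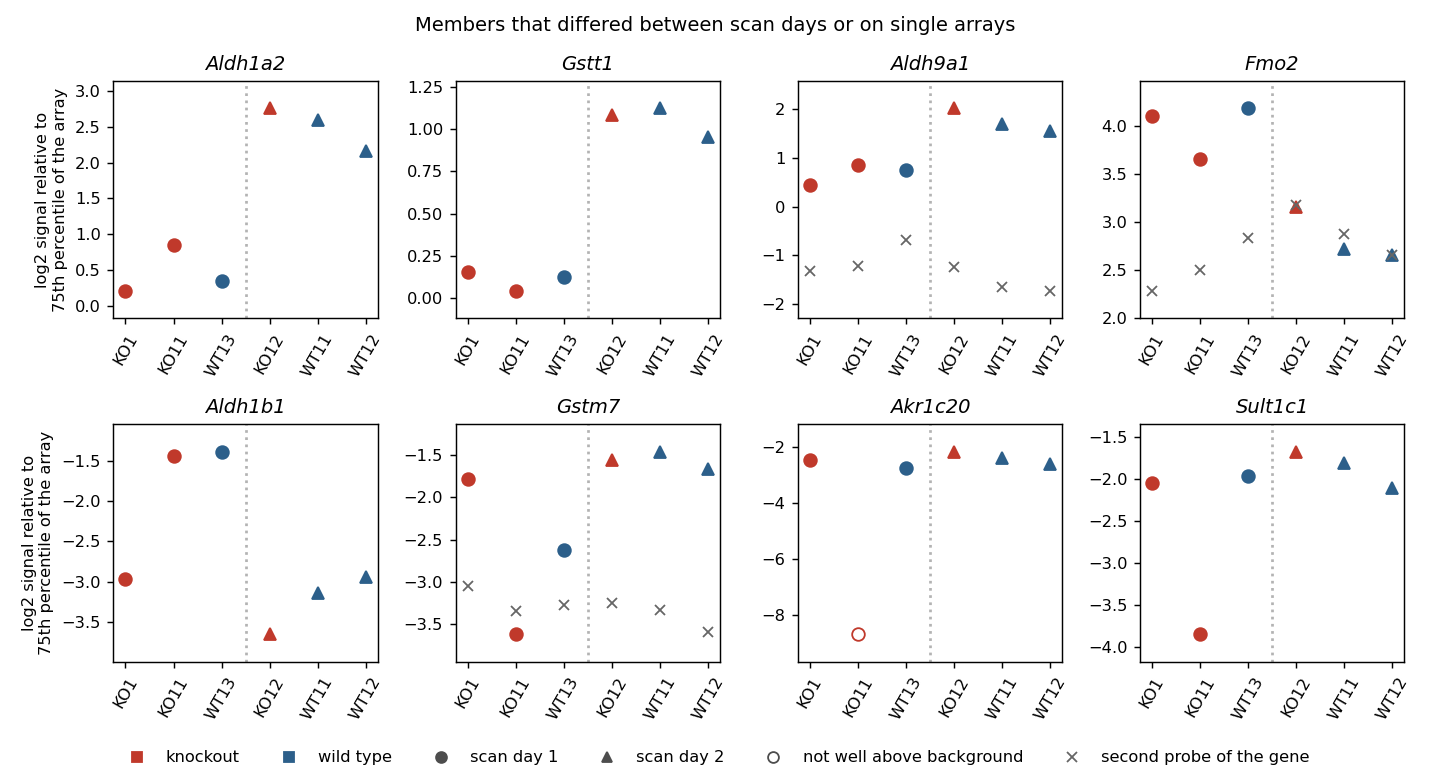
Log2 signal relative to the array's 75th percentile (vertical axes, a separate range per gene) on the 6 arrays, ordered by scan day with the dotted line between days and with knockout arrays left of wild-type arrays within a day. Crosses are the next brightest probe of the gene where it was well above background on all 6 arrays, and the open symbol is not well above background. Aldh1a2 and Gstt1 split by day, Aldh1b1 is high in knockout 11 and wild type 13, and Akr1c20 and Sult1c1 are low in knockout 11 only.

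Other genes of the same chemistry gave no adjusted call either. In the list of glutathione supply and peroxidase genes, 18 of 27 measured genes were higher and 9 lower in the knockout, none at an unadjusted p under 0.05, with a median difference of 0.03; glutathione reductase, Gsr, stood at 0.91, 1.75 and 1.51 in knockout lungs and 2.40, 2.20 and 1.18 in wild-type lungs. Of 24 Nrf2 regulators and other Nrf2 targets, 14 were higher and 10 lower at a median of 0.03, and Keap1, the repressor of Nrf2, differed by 0.42 with a standard error of 0.35, by 0.13 within day 1 and by 0.14 within day 2; it was lower on day 2, with a difference of -0.85 (limma, adjusted p = 0.0165). Of 7 measured Ah receptor pathway genes 4 were higher and 3 lower (median 0.02), and of 10 nuclear receptors of the xenobiotic response 5 were higher and 5 lower (median 0.03). In the retinoid list, 12 of 22 were higher and 10 lower, and 1 reached an unadjusted p under 0.05, the retinoic acid binding protein Crabp1. It was higher, at -4.60, -5.19 and -5.17 in knockout lungs against -6.15, -6.47 and -5.46 in wild-type lungs. Crabp1 was near the detection limit, well above background on only 4 of the 6 arrays. Among 19 measured other conjugation and hydrolysis enzymes, 12 were higher and 7 lower, and the retinol-oxidising alcohol dehydrogenase Adh7 reached an unadjusted p under 0.05, at -3.90, -3.92 and -3.54 in knockout lungs against -3.18, -3.36 and -2.45 in wild-type lungs, a difference of -0.79. Over the 8 lists the groups did not overlap for 5 genes, where 3.98% of all genes did not overlap. Gpx8 and Hagh (higher) were among 27 glutathione genes, Crabp1 (higher) and Rarg (lower) among 22 retinoid genes, and Adh7 (lower) among 19 other enzymes. The remaining lists, of 24, 7, 10, 12 and 10 measured genes, held none, and nothing is read from the count. Gpx8, Hagh and Rarg are named to complete it. Of 12 co-substrate and electron donor genes 3 were higher and 9 lower (median -0.07), and of 10 conjugate efflux transporters 5 were higher and 5 lower (median -0.01), with none at an unadjusted p under 0.05.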

How the data were processed

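Lung RNA was measured on Agilent 014868 arrays with Cy3, per the labels' protocols. The deposited scanner files hold an intensity per spot, and per the file headers Feature Extraction 9.5.1.1 made it. Version 9.1 stands in the submitters' processing notes. The authors' deposited value table behaves as log2 intensity (medians 8.087 to 8.090 per array) and follows the median spot signal without background subtraction; its scale was read from the values, since no source used here says how it was made.

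Outlier spots were left out (48 to 99 per array), spots of a probe were averaged, and 30 of 41174 probes were dropped because flagged on an array. The value was log2 of the processed signal minus log2 of the array's 75th percentile (1087 to 2344). The test was limma's two-sided moderated one (version 3.58.1, R 4.3.3) without covariates, its p-values adjusted by Benjamini-Hochberg over 20423 genes. The fit was also run on simulated arrays with independent noise. Those arrays had no scan day or slide structure, so that run does not bear on such differences. Within a scan day, the lone array of a genotype is assumed to vary like the others. The number of arrays limits the precision. Positions of probes come from the array files (mm7); without an annotation of that build, exon, intron or UTR is not given.

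The members and lists were chosen with earlier results of these data known. Members were named by unadjusted p under 0.05 without overlap, the 4 smallest p of a family, the 8 largest SDs over arrays, the 6 largest differences between scan days, known role (8 genes) or the detection threshold; other genes, at most 4 by smallest p from each of 8 pathway lists. Gstm3, Gstt1, Akr1c13, Akr1c21 and genes named only to complete a count were chosen after their values were seen. Of 18 marker lists, all measured goblet, adipocyte, neutrophil, mesothelial and hepatocyte markers were lower and all smooth muscle and B cell markers higher in the knockout; the other 11 were mixed. Replicate numbers 11 and 12 occur in both groups but were not taken as pairs. Alternatives were other scalings, backgrounds, filters, probe rules, blocks and leaving out each array.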

Additional observations from a re-analysis of the deposited data

How the results depend on the processing

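Of 37 named members, 18 kept their sign under all of the 20 alternatives that could be computed for them. No member passed an adjusted p under 0.05 under any alternative, with a lowest adjusted p of 0.180. Over all genes the count at an adjusted p under 0.05, 0 in the main comparison (191 at an unadjusted p under 0.05), was 2 with median scaling, slide as a random block or array weights, 1 with normexp, the authors' values or a trended robust prior, and 0 to 1 with 1 array left out (1 without knockout 1). Members at an unadjusted p under 0.05, 2 in the main comparison, were 4 with median scaling, normexp or the authors' values, 7 with the slide block, 16 with array weights, 27 within day 2 and 1 to 7 with 1 array left out (1 without wild type 11, 7 without wild type 13). With the replicate number as a block, which only numbers 11 and 12 allow, they were 5. Same-numbered lungs deviated from their group means with correlations of -0.25 (number 11) and 0.42 (number 12). Set against the other number, knockout 11 gave -0.21 and knockout 12 gave 0.57. Knockout 12 shares its scan day with wild type 11 and wild type 12, so these values cannot decide the pairing. The numbers were not taken as pairs. Members with a lower mean in the knockout, 37 in the main comparison, were 57 within day 1 and 17 within day 2, where the median difference was 0.29. Members without overlap, 8 in the main comparison, were 11 to 24 with 1 array left out (24 without wild type 13), where fewer samples make overlap rarer. Members past the adjusted threshold between days, 4 in the main comparison, were 8 with median scaling, 1 with array weights and 1 to 5 with 1 array left out (1 without knockout 12 or any 1 wild-type lung). The share of all genes under these alternatives is not given here, so nothing is read from these counts about the members. The cause of the other shifts was not tested. Signals near background limit Akr1c18, Fmo6, Ugt2a3, Ugt2b38 and Akr1c6 among others, whose differences were smaller in values that keep background. The same held for Sult1e1, which was dim though well above background on all 6 arrays. It also held for Akr1c20, where knockout 11 was not well above background.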
